A study of Mus musculus with 24 samples.

Results

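The interferon pathway was followed in optogenetic muscle tissue through 9 genes, namely the transcription factors Stat2, Irf1, Irf3, Irf7, and Irf9 and the interferon-stimulated genes Isg15, Ifi35, Bst2, and Ifit1. They are defined by name and not by a threshold on measured values, and all 9 were found among the 56941 genes of the values used here. Tissues were grown from C2C12 cells, a line of mouse myoblasts that forms contracting myotubes. In every condition, the control included, the cells carried ChR2::tdTomato, a blue light-gated channel with a red fluorescent tag, sat on a fibrin hydrogel, and were differentiated in medium with horse serum and IGF-1. The control received no stimulation, and the other tissues were stimulated with light pulses of 1, 4, or 10 Hz for 60 min per day. Each condition had 6 biological replicates, with 24 libraries in all. The authors saw spontaneous twitching in every condition and state that their unstimulated controls may still have been exercised. All replicates are cultures of 1 cell line, so the p-values measure the spread between cultures and not between animals.

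Interferons are secreted antiviral proteins that bind receptors coupled to Janus kinases, which phosphorylate the STAT factors. Stat2 and Irf9 act in a complex that binds the interferon-stimulated response element (ISRE), whereas the gamma-activated sequence (GAS) is the element of the interferon-gamma response. Irf3 and Irf7 act upstream of this loop, as they switch on interferon genes when cells sense foreign or misplaced nucleic acid, and muscle fibers are among the cells that can mount this response.

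The promoter sequences are shown because they carry the elements by which interferon signaling is read out. Promoter windows from RefSeq, from 250 bases upstream to 50 bases downstream of each transcription start, matched all 9 genes, and each window was located in GRCm39 by an exact match. The letters GAAANNGAAA (ISRE) and TTCNNNGAA (GAS) were searched on both strands. ISRE letters were found near Isg15, Bst2, Ifit1, and Stat2, or 4 of the 9 genes, compared with 3.99% of 27025 genes with windows of the same length. GAS letters were found near Irf1, Bst2, and Ifi35, compared with 9.55% of genes. The stretches below are written along the strand of the gene, with matches in capitals.
Isg15: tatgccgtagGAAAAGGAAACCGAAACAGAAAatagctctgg
Bst2: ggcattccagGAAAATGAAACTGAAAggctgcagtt
Ifit1: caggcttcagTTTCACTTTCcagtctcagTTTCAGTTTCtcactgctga
Stat2: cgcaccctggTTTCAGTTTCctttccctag
Irf1: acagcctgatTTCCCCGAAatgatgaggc
The Isg15 stretch (chr4:156285322-156285363, minus strand) holds 3 overlapping ISRE matches and ends 47 bases upstream of the start. The Bst2 stretch (chr8:71990221-71990256, minus strand) holds 2 overlapping ISRE matches, and a GAS match (TTCCAGGAA) overlaps the first of them. The 2 matches of Ifit1 (chr19:34618175-34618223, plus strand) and the single match of Stat2 (chr10:128106135-128106164, plus strand) lie in the reverse orientation. The Irf1 stretch (chr11:53660741-53660769, plus strand) shows its GAS match, which starts 90 bases upstream. The GAS match of Ifi35 (TTCACAGAA) starts 8 bases downstream of the start. These letters were not in the windows of Irf3, Irf7, and Irf9. The windows of Irf9 (chr14:55841192-55841491 and chr14:55841786-55842085) lie downstream of its annotated gene start at 55841028. The bases upstream of that start were therefore not searched. A match describes the sequence and does not show that a factor binds there.

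The libraries held 8052369 to 18159144 estimated counts each. Defining transcripts of myotubes were abundant in every library, with 12 markers adding up to at least 13321 TPM, a unit scaled for transcript length and library total. Of 11 leukocyte markers, 1 passed the filter on low counts, namely Cd68 at 55.1 to 102 TPM, whereas Tyrobp and Siglech had no count in any library and Ptprc reached at most 0.031 TPM. Of 4 fibroblast markers tested, 2 were higher and 1 was lower than in the control at both 1 and 4 Hz, and of the 12 myotube markers 3 were higher at 4 Hz and 0 differed at 1 Hz. Of all genes tested, 19.2% were higher and 18.1% lower at 1 Hz, and 27.5% were higher and 23.9% lower at 4 Hz. The share of counts from mitochondrial genes reached at most 2.72% in the control and 2.56% at 10 Hz, but was 3.97% and 4.87% in replicates 4 and 6 at 1 Hz and 8.90% and 4.34% in replicates 3 and 6 at 4 Hz. The part of these markers and of the mitochondrial share in the results was not tested beyond leaving out these 4 libraries. RNAs without a poly(A) tail differed between conditions. The summed level of Rn7sk, Rmrp, and Rpph1 was 24.5 to 98.9 TPM in the control and 35.4 to 135 TPM at 10 Hz, whereas it was 71.2 to 296 TPM at 1 Hz and 74.2 to 464 TPM at 4 Hz. In 6 libraries (replicates 2, 3, and 4 at 1 Hz and 1, 3, and 4 at 4 Hz), this level exceeded that of every control and 10 Hz library. The labels state that low-input samples were depleted of ribosomal RNA rather than poly(A) selected and do not name them. The 6 libraries are referred to below as those high in RNA without poly(A), and the calls among the 9 genes and of the pathway genes named are also given without them.

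Of the 9 genes, 7 passed the filter on low counts and were tested, and Isg15 and Ifit1 were too low. At 1 Hz, Irf3 fell and Irf9 rose, or 2 of 7 genes, while 37.3% of the 13315 genes tested passed the same threshold (adjusted p under 0.05 in edgeR), with 19.2% higher and 18.1% lower. At 4 Hz, Irf3 fell and Bst2 and Ifi35 rose, or 3 of 7, against 51.4% of all genes (27.5% higher and 23.9% lower). At 10 Hz, 0 of 7 genes passed with edgeR and 0 with DESeq2, and 1 (Irf9) had an unadjusted p under 0.05, while 0.0376% of all genes passed and 8.07% had an unadjusted p under 0.05. With a log2(fold change) beyond 0.5 required as well, 1 of 7 passed at 1 Hz and 2 of 7 at 4 Hz, against 14.9% and 25.1% of all genes. On the log2 scale, the 7 genes had median changes of 0.20, 0.22, and 0.01 with rising frequency, beside 0.04, 0.06, and 0.01 for all genes tested. The 3 comparisons share the same 6 control libraries. As these are bulk samples, fewer cells that express a gene and less of its RNA per cell cannot be told apart.

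**Figure D1:**
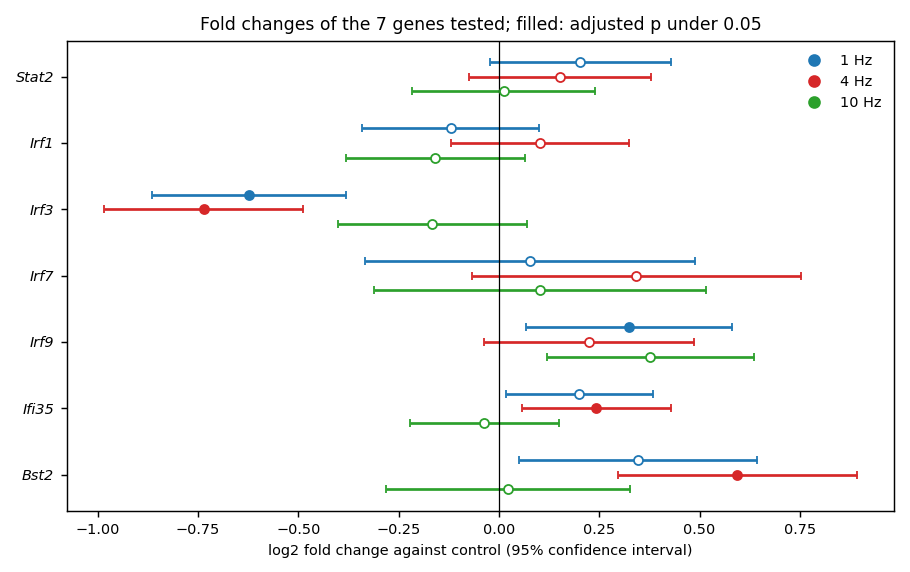
Log2(fold change) against the control (x axis) of the 7 genes tested (y axis) at 1 Hz (blue), 4 Hz (red), and 10 Hz (green), with 95% confidence intervals from edgeR; filled points have an adjusted p under 0.05. Irf3 stands at -0.62 and -0.74 at 1 and 4 Hz, Bst2 reaches 0.59 at 4 Hz, and no point at 10 Hz is filled.

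Per length of transcript, the genes differed widely in level. In the control, Bst2 was highest at 23.1 ± 2.34 TPM (SD, n = 6), followed by Irf1 at 20.5 ± 1.28 TPM and Ifi35 at 17.6 ± 1.31 TPM. The ranges of these neighbors overlapped, and all 3 stood near the middle of the genes tested, at the 59.2, 56.1, and 52.8 percentile. Irf3 (10.7 ± 1.76 TPM) and Stat2 (6.93 ± 1.15 TPM) formed the next steps, and neither overlapped with the gene below it. Irf9 followed at 3.73 ± 0.624 TPM and overlapped with Isg15 at 1.96 ± 0.951 TPM, which in turn overlapped with Irf7 at 1.46 ± 0.277 TPM. Ifit1 was lowest at 0.152 ± 0.128 TPM. At 1 and 4 Hz, Irf3 changed places with Stat2, as its mean of 6.24 and 5.80 TPM lay below the 6.86 and 6.29 TPM of Stat2, with overlapping ranges in both conditions. Ifi35 and Irf1 changed places at 1 Hz, also with overlapping ranges, and the order at 10 Hz was that of the control.

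**Figure D2:**
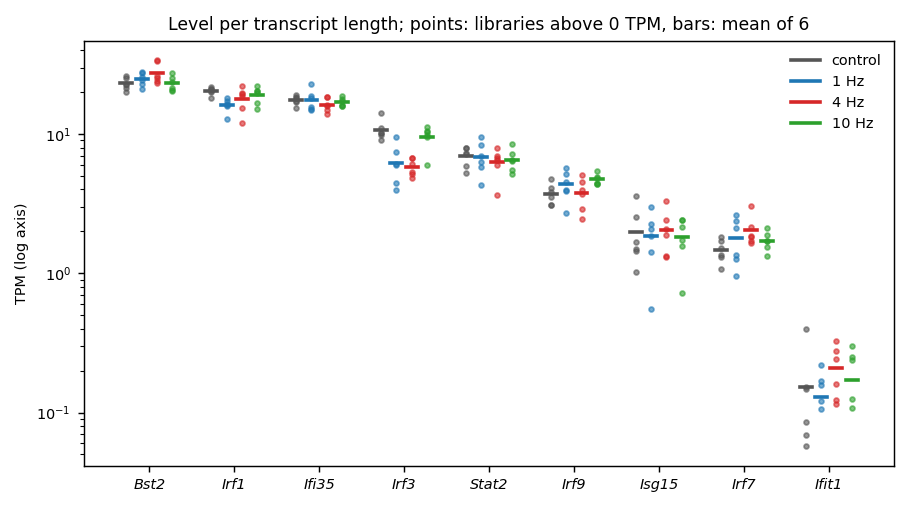
TPM (log y axis) of the 9 genes, ordered by their level in the control, in each library above 0 TPM (points) and as the mean of 6 libraries (bars) per condition. Levels run from about 23.1 TPM for Bst2 to 0.152 TPM for Ifit1 in the control, and the means of Irf3 at 1 and 4 Hz lie below its control and 10 Hz means. Single libraries of Irf3 overlap in these comparisons, except at 4 Hz against the control.

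Irf3 encodes the constitutively expressed factor that is activated by phosphorylation when nucleic acid sensors fire. The gene lies at chr7:44647033-44652272 on the plus strand of GRCm39. In CPM, counts scaled to a common library size by TMM, the lowest, median, and highest control libraries had 8.05, 9.07, and 10.4 CPM. At 1 Hz the same values were 4.74, 5.78, and 7.63 CPM, and at 4 Hz they were 4.48, 5.71, and 6.16 CPM. All 12 libraries at 1 and 4 Hz therefore lay below every control library. At 10 Hz the values were 6.04, 8.20, and 9.34 CPM, and 4 of 6 libraries lay within the range of the control. Irf3 thus fell at 1 Hz by 0.62 (SE 0.118, adjusted p = 2.1e-04) and at 4 Hz by 0.74 (SE 0.121, adjusted p = 2.1e-05) on the log2 scale, to 0.650 and 0.601 of the control level. At 10 Hz it was -0.17 (95% interval -0.40 to 0.07, adjusted p = 0.80). Having all libraries outside the range of the control was common, as 14.1% of genes tested did so at 1 Hz and 27.6% at 4 Hz.

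The fall of Irf3 was also present without the 6 libraries high in RNA without poly(A), at -0.76 (adjusted p = 9.7e-04) for 1 Hz and -0.72 (adjusted p = 7.3e-04) for 4 Hz. Within 4 Hz, the 3 libraries high in these RNAs averaged 5.30 CPM and the other 3 averaged 5.59 CPM. Within 1 Hz, the 3 high in them averaged 6.51 CPM and the other 3 averaged 5.33 CPM. The value was -0.56 (adjusted p = 0.0028) at 1 Hz and -0.83 (adjusted p = 4.0e-05) at 4 Hz without the 4 libraries high in mitochondrial share. Adjusted p stayed under 0.05 in all 13 alternative settings and with each library left out in turn, in both comparisons. Irf3 shares 145 of its 3481 exonic bases with Bcl2l12 and Scaf1 on the opposite strand, and how counting used the strand is not given in the sources used here. Bcl2l12 had a log2(fold change) of 0.19 at 1 Hz and 0.25 at 4 Hz (adjusted p = 0.49 and 0.31). Scaf1 fell by 0.23 and 0.21 on the log2 scale (adjusted p = 0.031 and 0.033).

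**Figure D3:**
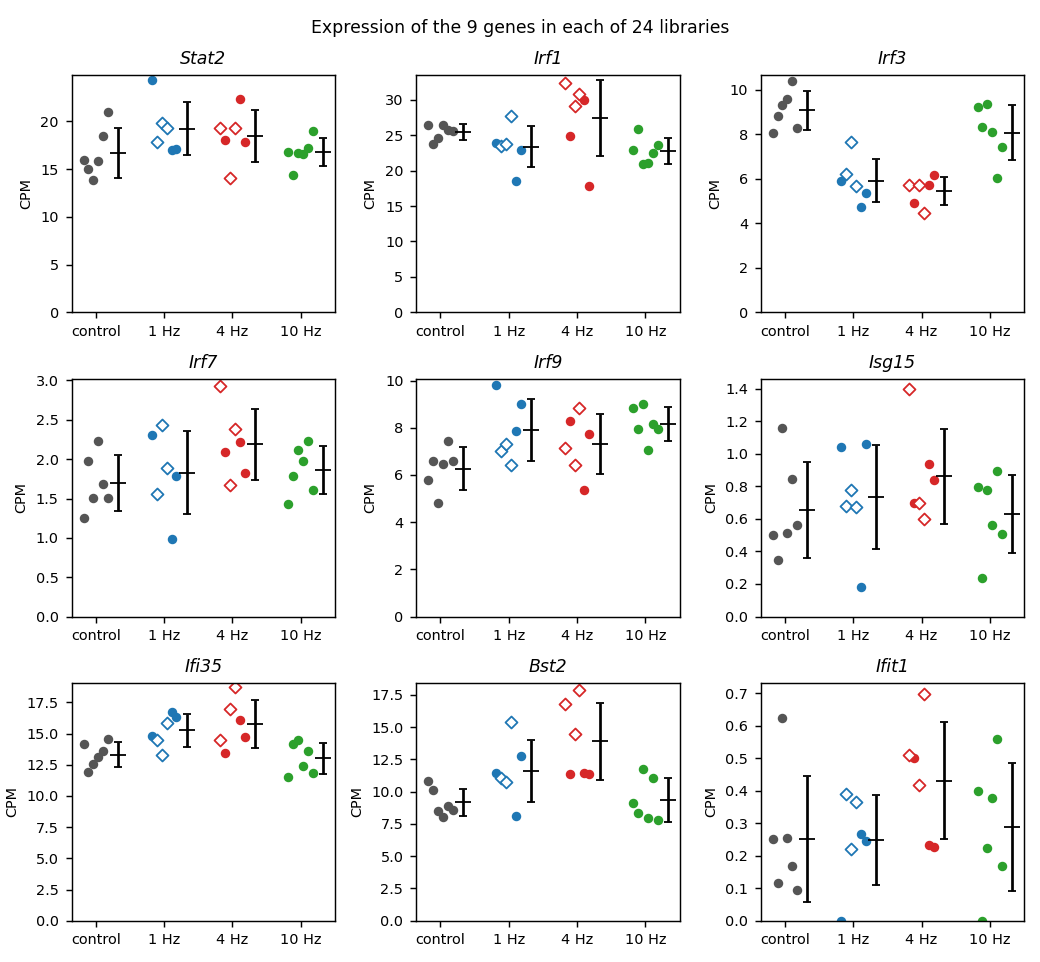
CPM (y axis, from 0, with its own scale in each panel) of each of the 9 genes in the 6 libraries of each condition, with the mean and SD beside the points; open diamonds mark the 6 libraries high in RNA without poly(A). Irf3 at 1 and 4 Hz sits below all control libraries, and Bst2 at 4 Hz splits into 3 diamonds at 14.5 to 17.9 CPM and 3 filled points at 11.3 to 11.4 CPM.

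Irf9 and Stat2 encode the DNA-binding and the transactivating subunits of the complex that acts on the ISRE. Irf9 lies at chr14:55841028-55847812 (plus strand). The lowest, median, and highest libraries had 4.80, 6.51, and 7.43 CPM in the control, 6.40, 7.58, and 9.83 CPM at 1 Hz, 5.37, 7.44, and 8.85 CPM at 4 Hz, and 7.05, 8.06, and 9.01 CPM at 10 Hz. The ranges overlapped in all comparisons, although all 6 libraries at 1 Hz and all 6 at 10 Hz exceeded the control mean of 6.27 CPM. The log2(fold change) was 0.32 (SE 0.125, adjusted p = 0.044) at 1 Hz, 0.22 (adjusted p = 0.14) at 4 Hz, and 0.38 (SE 0.126, unadjusted p = 0.0057, adjusted p = 0.37) at 10 Hz. The adjusted p at 10 Hz ranged from 0.14 to 1.00 over 13 alternatives.

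The call of Irf9 at 1 Hz was not firm. Irf9 passed in 3 of 13 alternatives, over which adjusted p ranged from 0.017 to 0.56. Adjusted p was at most 0.14 when 1 library was left out, and the call was lost without control replicate 1, 2, 3, 4, or 6 or 1 Hz replicate 1, 3, 5, or 6. The 3 libraries at 1 Hz high in RNA without poly(A) averaged 6.90 CPM and the other 3 averaged 8.91 CPM, and without the 6 libraries the log2(fold change) was 0.51 (adjusted p = 0.017), whereas it was 0.36 (adjusted p = 0.055) without the 4 libraries high in mitochondrial share. Irf9 also shares 282 exonic bases with Rnf31, a ubiquitin ligase gene on the same strand, which rose by 0.71 at 1 Hz and 0.83 at 4 Hz on the log2 scale (adjusted p = 2.1e-04 and 2.0e-05). At 10 Hz, Rnf31 stood at 0.10 (adjusted p = 0.94). Reads in the shared bases can be assigned to either gene, and the part of this overlap in the Irf9 values was not tested.

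Stat2 (chr10:128106352-128128735, plus strand) had 13.9, 15.9, and 20.9 CPM in the lowest, median, and highest control libraries, with 17.0, 18.5, and 24.4 CPM at 1 Hz, 14.1, 18.7, and 22.3 CPM at 4 Hz, and 14.4, 16.7, and 19.0 CPM at 10 Hz. No condition separated from the control. The 95% intervals of its log2(fold change) were -0.02 to 0.43 at 1 Hz, -0.08 to 0.38 at 4 Hz, and -0.22 to 0.24 at 10 Hz (adjusted p = 0.15, 0.26, and 0.99).

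Irf1 is a factor that interferon-gamma induces through its GAS element. The gene lies at chr11:53660812-53669200 (plus strand). The lowest, median, and highest libraries had 23.7, 25.7, and 26.5 CPM in the control, 18.6, 23.6, and 27.6 CPM at 1 Hz, 17.8, 29.5, and 32.3 CPM at 4 Hz, and 20.9, 22.7, and 25.9 CPM at 10 Hz. The control libraries lay closest together, and at 4 Hz they were spread most widely, with 4 libraries above and 1 below every control library. The 3 libraries at 4 Hz that were high in RNA without poly(A) had 29.1 to 32.3 CPM and the other 3 had 17.8 to 29.9 CPM. With rising frequency, the log2(fold change) was -0.12, 0.10, and -0.16 (adjusted p = 0.39, 0.44, and 0.79), and the value at 4 Hz was -0.11 (adjusted p = 0.49) without the 6 libraries. Irf1 shares 2152 exonic bases with opposite-strand genes.

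Irf7, the interferon-inducible relative of Irf3, was near the limit of detection with 11 to 35 counts per library. Its gene lies at chr7:140842619-140846398 (minus strand). The lowest, median, and highest control libraries had 1.26, 1.60, and 2.23 CPM, while those at 4 Hz had 1.67, 2.16, and 2.93 CPM, and the ranges overlapped. The log2(fold change) at 4 Hz was 0.34 with a 95% interval of -0.07 to 0.75 (adjusted p = 0.15). It passed in 1 of 12 alternatives, limma on log2(TPM + 1) rescaled by TMM (0.46, adjusted p = 0.017). The intervals at 1 Hz (-0.33 to 0.49) and 10 Hz (-0.31 to 0.52) were about as wide (adjusted p = 0.78 and 0.97).

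Among the interferon-stimulated genes, Bst2 encodes tetherin, a membrane protein that holds budding enveloped viruses at the cell surface. The gene lies at chr8:71986895-71990114 (minus strand). The lowest, median, and highest libraries had 8.04, 8.71, and 10.8 CPM in the control, 8.14, 11.3, and 15.4 CPM at 1 Hz, 11.3, 13.0, and 17.9 CPM at 4 Hz, and 7.79, 8.70, and 11.8 CPM at 10 Hz. All 6 libraries at 4 Hz exceeded every control library, where 27.6% of genes tested had all libraries outside the range of the control. At 1 Hz, 4 of 6 libraries exceeded every control library for Bst2. The log2(fold change) was 0.59 (SE 0.145, adjusted p = 0.0015) at 4 Hz, or 1.51 times the control level. It was 0.35 (SE 0.145, adjusted p = 0.060) at 1 Hz, where leaving out control replicate 1 gave 0.40 (adjusted p = 0.043) and leaving out 1 Hz replicate 5 gave 0.43 (adjusted p = 0.016), and 0.02 (95% interval -0.28 to 0.33, adjusted p = 0.99) at 10 Hz.

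Bst2 was also read against the RNAs without poly(A). At 4 Hz, the 3 libraries high in these RNAs had 14.5 to 17.9 CPM, and the other 3 had 11.3 to 11.4 CPM. At 1 Hz, the 3 libraries high in them had 10.7 to 15.4 CPM and the other 3 had 8.14 to 12.8 CPM, so that these ranges overlapped. Without the 6 libraries, the log2(fold change) at 4 Hz was 0.28 (adjusted p = 0.16), whereas it was 0.63 (adjusted p = 0.0011) without the 4 libraries high in mitochondrial share. The 2 control libraries with the most of these RNAs (replicates 1 and 2, with 98.9 and 92.1 TPM) were also the highest for Bst2, at 10.8 and 10.1 CPM. At 10 Hz the same held for replicates 3 and 5 (135 and 74.1 TPM), which had 11.8 and 11.1 CPM of Bst2. It did not hold at 1 Hz, where replicates 4 and 3 (296 and 277 TPM) had 15.4 and 10.7 CPM of Bst2, and replicate 6 (113 TPM) had 12.8 CPM. Nor did it hold at 4 Hz, where replicates 4 and 3 (464 and 198 TPM) had 17.9 and 14.5 CPM, and replicate 1 (174 TPM) had 16.8 CPM. The part of these RNAs in the result was not tested.

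**Figure D4:**
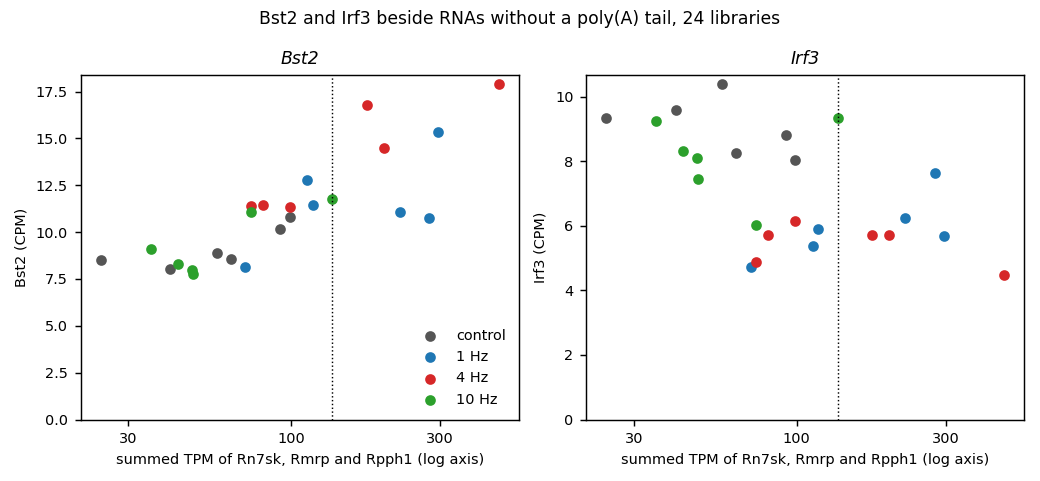
Bst2 (left) and Irf3 (right) in CPM (y axes, from 0) against the summed TPM of Rn7sk, Rmrp, and Rpph1 (log x axis) in the 24 libraries, colored by condition; the dotted line is the highest control or 10 Hz library, at 135 TPM. Right of the line, Bst2 is at 14.5 to 17.9 CPM in the 4 Hz libraries and 10.7 to 15.4 CPM in the 1 Hz libraries, whereas Irf3 at 1 and 4 Hz lies below the control on both sides of the line.

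Ifi35 encodes an interferon-induced leucine zipper protein and lies at chr11:101339221-101352693 (plus strand). The lowest, median, and highest libraries had 12.0, 13.3, and 14.6 CPM in the control, 13.3, 15.3, and 16.7 CPM at 1 Hz, 13.5, 15.4, and 18.7 CPM at 4 Hz, and 11.5, 13.0, and 14.5 CPM at 10 Hz. At both 1 and 4 Hz, 4 of 6 libraries exceeded every control library and the ranges overlapped. The log2(fold change) was 0.24 (SE 0.090, adjusted p = 0.026) at 4 Hz, 0.20 (SE 0.089, adjusted p = 0.077) at 1 Hz, and -0.04 (95% interval -0.22 to 0.15, adjusted p = 0.98) at 10 Hz. At 4 Hz, the 3 libraries high in RNA without poly(A) averaged 16.7 CPM and the other 3 averaged 14.8 CPM, and without the 6 libraries the value was 0.12 (adjusted p = 0.38). The call was also lost without control replicate 2, 3, 4, or 5 or 4 Hz replicate 3, 4, or 5, with an adjusted p of up to 0.15. It held in 5 of 13 alternatives, and among those without it were the fit with no filter (adjusted p = 0.20), TPM rescaled by TMM (adjusted p = 0.15), and leaving out the 4 libraries high in mitochondrial share (adjusted p = 0.080). Ifi35 shares 935 exonic bases with Vat1 and Gm11626 on the opposite strand, and Vat1 fell at 4 Hz by 0.22 on the log2 scale (adjusted p = 0.024).

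Isg15 encodes a ubiquitin-like modifier and Ifit1 a protein that binds foreign RNA, and both are among the classic targets of type I interferon. They lie at chr4:156283883-156285303 (minus strand) and chr19:34618271-34632174 (plus strand). Isg15 had 2 to 13 counts per library, which added up to 49 counts in the control and, with rising frequency, to 49, 48, and 39 counts. In CPM, the lowest, median, and highest libraries were 0.350, 0.537, and 1.16 in the control, 0.179, 0.728, and 1.06 at 1 Hz, 0.597, 0.768, and 1.40 at 4 Hz, and 0.238, 0.671, and 0.895 at 10 Hz. Ifit1 had 0 to 7 counts per library, which added up to 18.6 counts in the control and, with rising frequency, to 18, 24, and 18 counts. Every range overlapped with the control. A two-sided exact permutation test of log2 CPM over the 924 splits of 6 against 6 libraries gave adjusted p values of at least 0.49 in all 12 tests of the 2 genes. The smallest unadjusted value was p = 0.087 in the exact test of Ifit1 at 4 Hz against 1 Hz. No difference was detected at these counts, and the size that could have been detected was not measured.

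The values above come from counts scaled by TMM, and the direction of small changes depended on that scale. In TPM, the median gene itself stood at -0.14, -0.21, and -0.01 with rising frequency. Among all genes, limma on log2(TPM + 1) called 481 higher and 2933 lower at 1 Hz and 782 higher and 4818 lower at 4 Hz, where edgeR called 2554 higher and 2408 lower and 3664 higher and 3178 lower. On this log2(TPM + 1) scale, which understates changes of low genes, Irf3 fell by 0.73 at 1 Hz and 0.78 at 4 Hz (adjusted p = 0.0017 and 3.4e-04), or 0.59 and 0.58 below the median of all genes. Bst2 at 4 Hz was 0.24 (adjusted p = 0.080), which is 0.45 above the median, and Ifi35 at 4 Hz was -0.11 (adjusted p = 0.44), which is 0.10 above it. Irf9 at 1 Hz was 0.16 (adjusted p = 0.44), or 0.30 above the median. Irf1 at 1 Hz was -0.33 (adjusted p = 0.047), or -0.19 relative to the median.

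The frequencies were also compared with each other. Between 4 and 1 Hz, 0 of 7 genes passed with edgeR or DESeq2, 0 had an unadjusted p under 0.05, and 0% of all genes passed, with 11% at an unadjusted p under 0.05. Without the 4 libraries high in mitochondrial share, 1 gene passed, as Irf1 was higher at 4 Hz by 0.36 (adjusted p = 0.027). The share of all genes that passed in that fit is not given here, so this call cannot be read as particular to Irf1. At 10 Hz against 1 Hz, Irf3 was higher by 0.46 (SE 0.120, adjusted p = 0.0066) and the other 6 did not pass, while 27.9% of all genes passed (14.8% higher and 13.1% lower). With a log2(fold change) beyond 0.5 also required, 0 of 7 passed against 10.8% of all genes. At 10 Hz against 4 Hz, where 46.3% of all genes passed (21.9% higher and 24.4% lower), 3 of 7 did so, of which 2 exceeded a log2(fold change) of 0.5 against 21.2% of all genes. Irf3 was higher by 0.57 (SE 0.123, adjusted p = 6.7e-04), whereas Bst2 and Ifi35 were lower, at -0.57 (SE 0.148, adjusted p = 0.0029) and -0.28 (SE 0.091, adjusted p = 0.015). Of 12 myotube markers tested at 10 Hz against 4 Hz, 10 were lower at 10 Hz and 0 were higher, and their part in the result was not tested. With the 6 libraries high in RNA without poly(A) left out, Irf3 still passed at 10 Hz against 1 Hz (0.59, adjusted p = 0.012) and against 4 Hz (0.55, adjusted p = 0.0095), whereas Bst2 (-0.27, adjusted p = 0.20) and Ifi35 (-0.17, adjusted p = 0.25) did not. The call of Ifi35 was also lost without 4 Hz replicate 3 or 4 or 10 Hz replicate 1 or 6, with an adjusted p of up to 0.074. Without 1 Hz replicate 3 or 10 Hz replicate 3, Ifi35 passed at 10 Hz against 1 Hz, at -0.26 and -0.25, and Bst2 did so without 1 Hz replicate 5, at -0.41. Irf1 at 10 Hz against 4 Hz stood at -0.26 (adjusted p = 0.052) and passed without 4 Hz replicate 2 or 6 (adjusted p = 0.044 and 0.0019) and without the 4 libraries high in mitochondrial share (-0.35, adjusted p = 0.0023).

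The other genes of the pathway were read from fixed lists of 149 genes, of which 80 were tested. Of these, 17 rose and 11 fell at 1 Hz (35% against 37.3% of all genes) and 19 rose and 18 fell at 4 Hz (46.2% against 51.4%). At 10 Hz 0 passed with edgeR or DESeq2, with 2 at an unadjusted p under 0.05. Over the 80 genes, the median log2 change was 0.09, 0.07, and 0.03 with rising frequency. Limma on log2(TPM + 1) called 0 higher and 13 lower at 1 Hz and 1 higher and 24 lower at 4 Hz. When the 6 libraries high in RNA without poly(A) were left out, 5 rose and 7 fell at 1 Hz and 8 rose and 14 fell at 4 Hz. Without the 4 libraries high in mitochondrial share, 82 were tested, of which 15 rose and 9 fell at 1 Hz and 22 rose and 19 fell at 4 Hz. The shares of all genes in the fits with libraries left out are not given here. These counts therefore cannot be read as a change of the pathway. Shares of single lists can be read against 19.2% of all genes higher and 18.1% lower at 1 Hz and 27.5% higher and 23.9% lower at 4 Hz.

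The interferon ligands were hardly detected, as 11 of 15 genes had no count in any library and the 15 together had 34.2 counts over all 24 libraries. Of the 10 receptors and Janus kinases, 9 were tested, and Ifnar2, a subunit of the type I interferon receptor, and Jak1, a kinase of both receptor types, rose at 1 and at 4 Hz. Jak1 stood at 0.24 and 0.21 on the log2 scale (adjusted p = 0.026 and 0.040), with adjusted p = 0.097 and 0.040 without the 6 libraries. Ifnar2 had 40.9 ± 2.37 CPM (SD, n = 6) in the control, 46.9 ± 3.21 CPM at 1 Hz (log2 0.20, adjusted p = 0.024), and 48.5 ± 4.65 CPM at 4 Hz (log2 0.25, adjusted p = 0.0044). Ifnar2 did not pass at either frequency without the 6 libraries (adjusted p = 0.20 and 0.11). Its call at 1 Hz was also lost without control replicate 4 or 6 or 1 Hz replicate 3, 4, or 6, with an adjusted p of up to 0.11.

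Among the 4 other STAT factors tested, Stat5a and Stat5b, which carry cytokine and growth hormone signals, fell at both 1 and 4 Hz. Stat5a had 17.4 ± 1.71 CPM in the control, 11.3 ± 1.73 CPM at 1 Hz (log2 -0.62, adjusted p = 5.4e-05), and 12.7 ± 1.74 CPM at 4 Hz (log2 -0.44, adjusted p = 9.8e-04). All 6 libraries at 1 Hz and 5 of 6 at 4 Hz lay below every control library, and the calls were also present without the 6 libraries (adjusted p = 0.0027 and 0.0083), as were those of Stat5b (adjusted p = 0.038 and 0.022). At 1 Hz, 14.1% of genes tested had all libraries outside the range of the control. Neither of the other two IRF factors tested passed.

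Of the 13 nucleic acid sensors and adaptors tested, 1 rose and 3 fell at 1 Hz and 1 rose and 6 fell at 4 Hz, or 30.8% and 53.8% against 37.3% and 51.4% of all genes. Cgas, the sensor of cytosolic DNA, had the smallest p among those that fell. It had 15.5 ± 1.60 CPM in the control, 7.97 ± 2.14 CPM at 1 Hz (log2 -0.96, adjusted p = 3.2e-05), and 6.15 ± 1.52 CPM at 4 Hz (log2 -1.31, adjusted p = 4.2e-07). All 12 of these libraries lay below every control library, and the fall was also present without the 6 libraries (log2 -0.76 and -1.08, adjusted p = 0.0022 and 5.7e-05). All libraries lay outside the range of the control for 14.1% of genes tested at 1 Hz and 27.6% at 4 Hz. Mavs and Traf3, which relay sensor signals toward Irf3, fell at both frequencies, and Tbk1, a kinase of Irf3, fell at 4 Hz. Traf3 (adjusted p = 0.0048 and 0.0028) and Tbk1 (adjusted p = 0.0025) also passed without the 6 libraries, whereas Mavs had an adjusted p of 0.062 at 1 Hz and 0.016 at 4 Hz. Ticam1, the adaptor of toll-like receptor 3, rose from 16.7 ± 1.83 CPM to 22.9 ± 4.39 CPM at 1 Hz (log2 0.45, adjusted p = 0.0076) and 24.1 ± 5.03 CPM at 4 Hz (log2 0.53, adjusted p = 0.0013), and it also passed without the 6 libraries (adjusted p = 0.044 and 0.0029).

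All 12 genes listed as feedback inhibitors were tested, of which 3 rose and 4 fell at 1 Hz and 4 rose and 4 fell at 4 Hz. These are 58.3% and 66.7% against 37.3% and 51.4% of all genes. The list also holds phosphatases, so these shares do not describe feedback alone. Socs1, an inhibitor of the Janus kinases, had 1.98 ± 0.687 CPM in the control and 4.44 ± 1.19 CPM at 4 Hz, where all 6 libraries exceeded every control library (log2 1.14, SE 0.258, adjusted p = 7.2e-04). At 4 Hz, 27.6% of genes tested had all libraries outside the range of the control. Without the 6 libraries, Socs1 at 4 Hz stood at 0.78 (adjusted p = 0.056). Socs1 also rose at 1 Hz, by 0.88 on the log2 scale (adjusted p = 0.0096), and passed there without the 6 libraries (adjusted p = 0.046). Ptpn1, a phosphatase that acts on Janus kinases, fell from 87.4 ± 3.60 CPM to 63.5 ± 6.90 CPM at 1 Hz (log2 -0.46, adjusted p = 3.1e-05) and 59.6 ± 5.31 CPM at 4 Hz (log2 -0.55, adjusted p = 1.6e-06), and it also passed without the 6 libraries (adjusted p = 0.0029 and 1.4e-04). The related phosphatase Ptpn2 rose from 58.3 ± 2.70 CPM to 68.4 ± 6.56 CPM at 1 Hz (log2 0.23, adjusted p = 0.0078), and leaving out 1 Hz replicate 4 (adjusted p = 0.0502) or the 6 libraries (adjusted p = 0.089) ended this call.

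Ube2l6, the conjugating enzyme for Isg15, rose from 15.5 ± 2.05 CPM to 20.1 ± 2.62 CPM at 1 Hz (log2 0.37, adjusted p = 0.0098) and 19.9 ± 1.85 CPM at 4 Hz (log2 0.36, adjusted p = 0.0090). It did not pass without the 6 libraries (adjusted p = 0.085 and 0.12). Of 33 antiviral effectors tested, 9 rose and 2 fell at 1 Hz, and 9 rose and 5 fell at 4 Hz, or 33.3% and 42.4% against 37.3% and 51.4% of all genes. Ifitm3, which blocks the entry of viruses, had 57.9 ± 4.57 CPM in the control and 80.3 ± 10.5 CPM at 4 Hz (log2 0.47, adjusted p = 1.0e-04), and it also passed without the 6 libraries (log2 0.35, adjusted p = 0.0084). Its rise at 1 Hz (log2 0.27, adjusted p = 0.019) was lost without the 6 libraries (log2 0.19, adjusted p = 0.16). Mov10, an RNA helicase, rose from 2.21 ± 0.473 CPM to 4.00 ± 1.28 CPM at 1 Hz (log2 0.83, adjusted p = 0.0045), which did not hold without the 6 libraries (adjusted p = 0.064). Znfx1, an RNA helicase with a zinc finger, fell from 81.7 ± 6.62 CPM to 55.2 ± 14.0 CPM at 1 Hz (log2 -0.57, adjusted p = 0.0015) and 47.6 ± 6.95 CPM at 4 Hz (log2 -0.78, adjusted p = 3.7e-05). Znfx1 without the 6 libraries had an adjusted p of 0.0022 at 4 Hz and 0.080 at 1 Hz.

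Of 19 interferon-gamma targets, 5 were tested. Nlrc5, the transactivator of class I major histocompatibility genes, rose from 2.82 ± 0.601 CPM to 4.08 ± 0.756 CPM at 1 Hz (log2 0.52, adjusted p = 0.031) and 4.42 ± 1.04 CPM at 4 Hz (log2 0.65, adjusted p = 0.0054), and it also passed without the 6 libraries (adjusted p = 0.043 and 0.0033). Its call at 1 Hz was lost without control replicate 1 or 4 or 1 Hz replicate 1 or 2, and on the log2(TPM + 1) scale it stood at 0.0014 at 1 Hz and -0.0074 at 4 Hz (adjusted p = 1.00 and 0.98). Irgm1, an immunity-related GTPase, fell from 10.7 ± 0.484 CPM to 8.60 ± 1.60 CPM at 4 Hz (log2 -0.30, adjusted p = 0.028), which was lost without control replicate 2 or 4 Hz replicate 1 and without the 6 libraries (adjusted p = 0.34). Of the genes named from the lists, Cgas, Stat5a, Znfx1, and Irgm1 also passed on the log2(TPM + 1) scale in each comparison given. So did Socs1 at 4 Hz and Ptpn1 at 1 Hz (adjusted p = 0.032). Ifnar2, Ticam1, Ptpn2, Ube2l6, Mov10, Ifitm3, Socs1 at 1 Hz, and Ptpn1 at 4 Hz (adjusted p = 0.051) did not. Cgas, Stat5a, Znfx1, and Irgm1 fell, and the median gene itself stood at -0.14 at 1 Hz and -0.21 at 4 Hz on that scale. Falls therefore pass more readily there than rises, and values relative to the median are not given for these genes. Of the genes named from the lists, the calls of Ifnar2, Ptpn2, Mavs, and Socs1 at 1 Hz were lost without the 4 libraries high in mitochondrial share (adjusted p = 0.067, 0.065, 0.18, and 0.051).

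**Figure D5:**
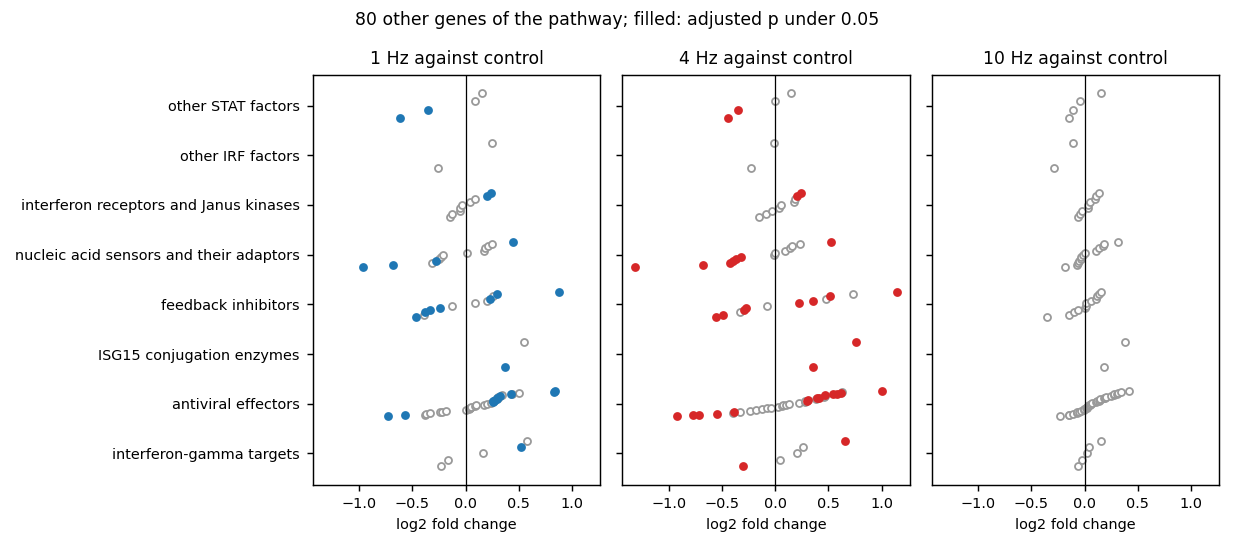
Log2(fold change) against the control (x axis) at 1, 4, and 10 Hz (left to right) of the 80 other pathway genes tested, grouped by role (y axis, 1 point per gene); filled points have an adjusted p under 0.05. Filled points lie on both sides of 0 at 1 Hz (17 higher, 11 lower) and 4 Hz (19 higher, 18 lower), and there are 0 at 10 Hz.

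Within conditions, the 7 tested genes varied only loosely together. The Pearson r of log2 CPM deviations from the condition means, over 24 libraries, ranged from -0.42 to 0.49 for the 21 pairs, with a median of 0.13. All 13315 genes tested, members left out, were searched for deviations like the mean of the 7. The highest were Itga7 (r = 0.85), Emp3 (r = 0.84), Gm3776 (r = 0.81), H2ac19 (r = 0.80), and Slurp1 (r = 0.79). Being picked as the highest of so many, they do not show shared regulation, and the spread of r over all genes is not given here. These values describe the same 24 libraries, whose depth and composition all genes of a library share.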

How the data were processed

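RNA of C2C12 tissues stimulated for 60 min per day was sequenced by the authors as read pairs. Tissues stimulated for other times were not analysed here. The authors deposited salmon estimated counts per gene, not normalized, and TPM per gene, both from the nf-core/rnaseq pipeline with GRCm39 and the Ensembl annotation. Whether counting used the strand is not given in the sources used here. Estimated counts were rounded (6.15% were not whole within 0.001) and fitted with edgeR 4.0.16 in R 4.3.3 over all 24 libraries, with filterByExpr (minimum count 10, total 15), TMM factors, and a quasi-likelihood test. Genes were called at a Benjamini-Hochberg adjusted p under 0.05. The biological coefficient of variation was 14.8% at 8052369 to 18159144 counts per library. Alternatives used RLE or upper-quartile factors, other filters, 2 conditions per fit, a replicate block, DESeq2 1.42.0, limma 3.58.1 on log2(TPM + 1) or log2(TPM + 0.1), a log2(fold change) over 0.5, and leaving out each library. Fits without the 6 libraries high in RNA without poly(A) and without the 4 high in mitochondrial share were added after seeing the data.

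Samples were grouped by their labels. The members, the gene lists, and the tests were chosen with earlier results of these data known. Named genes are the 9 members, from each pathway list the gene with the smallest p per direction at 1 and at 4 Hz, every pathway gene that passed at 10 Hz, and the 5 genes most like the members. Jak1, Stat5b, Mavs, Traf3, Tbk1, and the genes that overlap members were named after their values were seen. No 2 libraries of a condition were alike within sampling noise (chi-square per degree of freedom of 4.75 or more over 60 pairs). Scripts were tested on simulated data. Gene positions come from GENCODE M39 and promoter windows from RefSeq (GRCm38.p6), located in GRCm39 by exact match.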

Additional observations from a re-analysis of the deposited data

Results flagged for a closer look

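Among 36 groups of 6 libraries (9 genes in 4 conditions), 2 held a library that stood apart from the other 5 by Dixon's test, and chance alone flags about 1 in 20 groups. Isg15 in 1 Hz replicate 5 had 0.179 CPM (log2 CPM of -1.47), while the other 5 libraries had 0.671 to 1.06 CPM. Ifit1 in 1 Hz replicate 1 had 0 CPM (log2 CPM of -2.46 with the prior count), while the other 5 had 0.221 to 0.389 CPM. Both rest on 2 counts or fewer.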

How the results depend on the processing

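The fall of Irf3 at 1 and 4 Hz and its higher level at 10 Hz against both passed in all 13 alternatives and with each library left out. At 1 Hz, 1 of the 7 members (Irf3) passed with RLE factors, with no filter, with 2 conditions per fit, with the replicate block, with DESeq2, with limma on unfiltered or TMM-rescaled log2(TPM + 1), with a log2(fold change) over 0.5, and without the 4 libraries high in mitochondrial share, and 1 to 2 passed with a library left out. At 4 Hz, 1 (Irf3) passed with limma on log2(TPM + 1), log2(TPM + 0.1), or unfiltered TPM and without the 6 libraries high in RNA without poly(A), and 2 to 3 with a library left out. At 10 Hz against 4 Hz, the same 4 settings gave 1 (Irf3) and leaving out a library gave 2 to 4. At 10 Hz against 1 Hz, upper-quartile factors gave 2, the fold threshold gave 0, and leaving out a library gave 1 to 2. At 4 Hz against 1 Hz, the fit without the 4 libraries gave 1 (Irf1) and all other settings gave 0, and at 10 Hz against the control all settings run gave 0. The TMM-rescaled TPM gave 3 at 4 Hz, with Irf7 in place of Ifi35. For most of these settings, the share of all genes that passed is not given here. Shifts in these counts can therefore not be read as particular to the members.

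Of the pathway genes at 1 Hz, 17 passed with no filter, 13 on log2(TPM + 1), 13 on log2(TPM + 0.1), 11 on unfiltered TPM, 12 without the 6 libraries, and 9 with the fold threshold, and 22 to 34 with a library left out. At 4 Hz, these were 23 on unfiltered TPM, 22 without the 6 libraries, 16 with the fold threshold, and 33 to 38 with a library left out. Of these settings, counts or shares of all genes are given above for log2(TPM + 1) and the fold threshold only. Over all genes, the count at 10 Hz against the control was 5 with edgeR, 59 with DESeq2, and 58 with 2 conditions per fit. The causes were not tested.

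Outside leaving out a library, fold changes of members changed sign in 51 instances, mostly on the TPM scale, among them the called Ifi35 at 4 Hz against the control and at 10 Hz against 4 Hz. On log2(TPM + 1), with and without a filter, Stat2 was -0.034 at 1 Hz, -0.14 at 4 Hz, -0.072 at 10 Hz, and 0.063 at 10 against 4 Hz. Ifi35 was -0.012 at 1 Hz, -0.11 at 4 Hz, -0.094 at 4 against 1 Hz, and 0.058 at 10 against 4 Hz. Irf1 was -0.20 at 4 Hz, 0.22 at 10 against 1 Hz, and 0.10 at 10 against 4 Hz. Irf9 was -0.0011 at 4 Hz and Irf7 -0.0027 at 10 against 1 Hz. On log2(TPM + 0.1), the values in the same order were -0.042, -0.16, -0.082, and 0.076 for Stat2, -0.014, -0.11, -0.10, and 0.061 for Ifi35, -0.22, 0.24, and 0.10 for Irf1, and -0.0068 for Irf9. Rescaled by TMM, they were -0.064 for Stat2 at 10 Hz, 0.035 for Irf3 and -5.6e-04 for Ifi35 at 4 against 1 Hz, and 0.074 for Irf1, -0.11 for Irf7, and -0.0020 for Irf9 at 10 against 1 Hz. Without the 6 libraries, they were -0.034 for Irf7 at 1 Hz, -0.11 for Irf1 at 4 Hz, 0.044 for Irf3 and -0.15 for Ifi35 at 4 against 1 Hz, and 0.051 for Irf1 and -0.14 for Irf9 at 10 against 1 Hz. Without the 4 libraries, Irf1 was 0.013 at 10 against 1 Hz. With a library left out, the values that changed sign ranged from -0.029 to 0.20 for Irf7 at 1 Hz, -0.031 to 0.085 for Stat2 and -0.054 to 0.073 for Bst2 at 10 Hz, -0.11 to 0.025 for Stat2 and -0.017 to 0.084 for Ifi35 at 4 against 1 Hz, and -0.096 to 0.034 for Irf1 and -0.10 to 0.13 for Irf7 at 10 against 1 Hz.

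The replicate numbers do not pair the libraries, as 0 of 24 correlated best with a library of their own number and no comparison had every pair over 0.1. With the number as a replicate block, 1 member passed at 1 Hz (Irf3) and all genes passing went from 4962 to 4613. Isg15, Ifit1, and Irf7 rest on at most 35 counts per library.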
